A study of Mus musculus with 2 samples.

Results

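The loci of 8 regulators that mark the primed pluripotent state or the first embryonic lineages were examined: *Fgf5*, *Otx2*, *T*, *Gata6*, *Gata4*, *Pax6*, *Sox1* and *Foxa2*. Each locus was a fixed mm9 window that spans the gene and about 5 kb on each side, and a CpG belonged to a locus by its position. They held 1469 of the 1707425 CpGs measured in both libraries, and 66 of the 162599 genomic tiles of 2500 bp described below. The study sorted mouse embryonic stem cells (ESCs) by the activity of *Rex1*, a marker of naive pluripotency, to ask how DNA methylation differs between its high and low states. Cells of the E14 line, of the 129/Ola strain, carried a knocked-in *Rex1* reporter (Rex1-dGFP) and grew on gelatin with LIF and 10% serum. DNA of the *Rex1*-high and of the *Rex1*-low population went into 1 library each for reduced representation bisulfite sequencing (RRBS). This method sequences short fragments cut by restriction enzymes, in this case MspI and TaqI, after bisulfite conversion of unmethylated cytosines, and it favours CpG-rich sequence. The reporter line, strain and culture were shared by both populations, and the sort cannot be checked here because RNA was not measured in these libraries.

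Primed cells resemble the epiblast shortly before gastrulation, when naive genes are silenced and cells become ready to form the germ layers. *Fgf5*, a secreted growth factor, and *Otx2*, a homeobox factor, mark this state, whereas T (Brachyury) drives formation of the primitive streak and mesoderm. *Gata6* and *Gata4* encode zinc finger factors of the primitive endoderm, *Foxa2* encodes a forkhead factor of the node and definitive endoderm, and *Pax6* and *Sox1* encode factors of the neuroectoderm. Genes of this kind typically start in long CpG islands that are little methylated in ESCs, while CpG-poor sequence around them is usually methylated.

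The *Rex1*-high library held 60718476 methylation calls and the *Rex1*-low library 61024229. A CpG was used when it had a line of at least 5 calls in both libraries, and the methylation of a locus was the mean over its CpGs. Lines were kept separately in each library and averaged per CpG, so the lines behind a CpG could differ between the libraries. Within the 8 loci, the mean rose from 23.6% in the *Rex1*-high library to 29.5% in the *Rex1*-low library, compared with 39.2% and 54.2% over all CpGs measured. Median methylation was 6.07% and 11.1% in the loci, against 44.4% and 68.0% overall. Most CpGs of the loci were at or below 20% methylation in both libraries, 918 (62.5%) in *Rex1*-high and 864 (58.8%) in *Rex1*-low cells, where 38.8% and 34.2% of all CpGs were. Only 63 (4.29%) reached 80% in *Rex1*-high cells, but 184 (12.5%) did so in *Rex1*-low cells. Over the genome the corresponding shares at 80% or above were 11.8% and 41.9%. The 8 loci thus lay nearer to the unmethylated end than the sampled genome in both libraries. Each state was represented by a single library, so every difference below is between 2 libraries with no replicate check. The intervals and tests cover counting error only, and they treat every call as independent. Neighbouring CpGs can be read on the same fragment, so the intervals may be too narrow and the p-values too small.

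**Figure D1:**
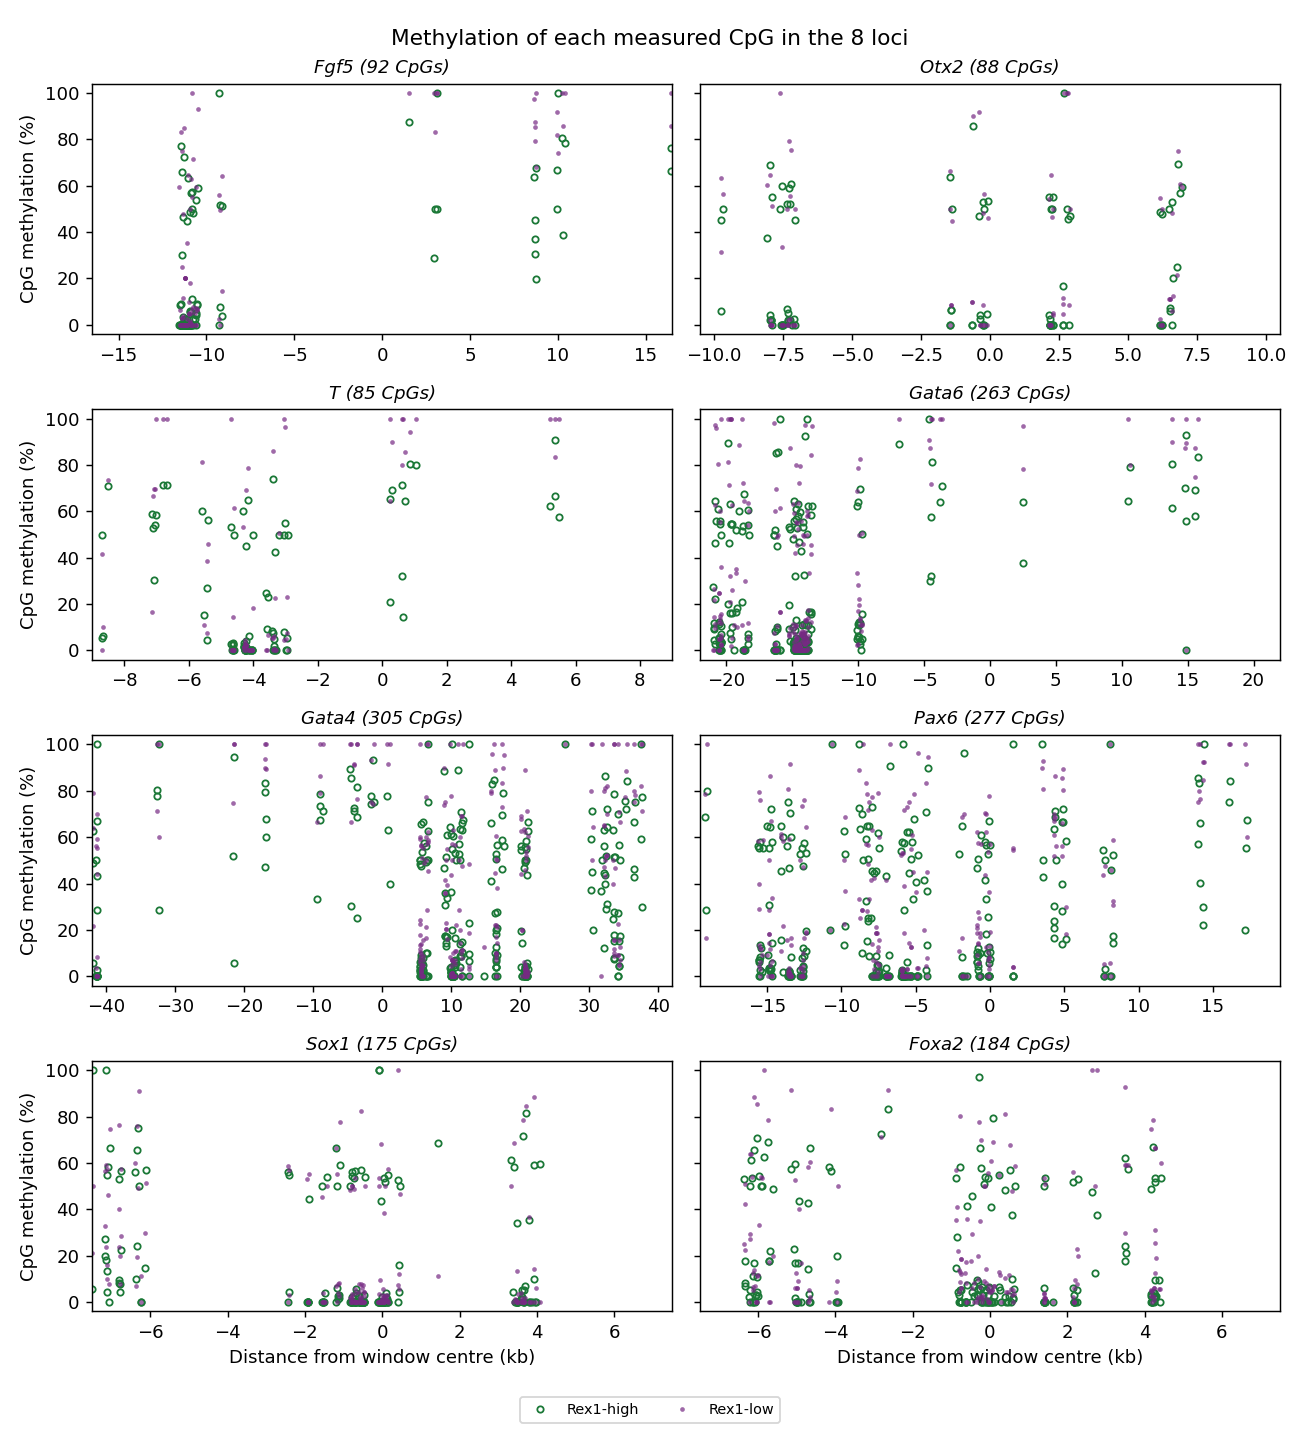
Methylation (%) of each measured CpG (vertical axis) against its distance in kb from the centre of the window (horizontal axis) for the 8 loci, with open green circles for the *Rex1*-high library and filled purple points for the *Rex1*-low library. Dense columns of CpGs near 0% occur in every locus in both libraries, and *Rex1*-low points near 100% stand above *Rex1*-high points of 50 to 80% both in these columns and outside them.

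All 8 locus means were higher in the *Rex1*-low library, by a median of 5.99 percentage points. This median was 7.85 points at a minimum of 10 calls per line, 3.70 with pooled calls and 3.51 with medians over CpGs. Of the 2 primed-state genes, *Fgf5* (chr5:98678001-98711000) showed the largest difference between means of the 8, from 24.1% to 33.4% over 92 CpGs. Pooled over calls, *Fgf5* differed by 9.25 points with a 95% Newcombe interval of 6.82 to 11.7. *Otx2* (chr14:49272001-49293000) went from 22.9% to 26.7% over 88 CpGs. Its pooled difference was 4.5 points, with an interval of 2.15 to 6.84.

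*T* (chr17:8622001-8640000), the mesoderm factor, went from 26.3% to 33.8% over 85 CpGs, and its pooled difference was 5.33 points with an interval of 2.88 to 7.78. The median CpG of the *T* window did not follow the mean and lay at 8.0% in *Rex1*-high and 6.67% in *Rex1*-low cells.

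Among the endoderm factors, *Gata4* (chr14:63812001-63896000) had the highest mean of the 8 loci in both libraries, with 30.5% and 38.8% over 305 CpGs. *Gata6* (chr18:11047001-11091000) went from 20.1% to 26.7% over 263 CpGs. *Foxa2* (chr2:147863001-147878000) went from 18.7% to 23.8% over 184 CpGs. These 3 differences shrank when calls were pooled, which gives deeply covered CpGs more weight. The pooled difference was 1.38 points for *Gata4*, with an interval of 0.0478 to 2.71, and 2.64 points for *Gata6*, with an interval of 1.41 to 3.86. For *Foxa2* it was 1.85 points, with an interval of 0.347 to 3.34.

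Of the neuroectoderm factors, *Pax6* (chr2:105503001-105542000) went from 26.3% to 31.7% over 277 CpGs, and its pooled difference was 5.22 points with an interval of 3.87 to 6.57. *Sox1* (chr8:12390001-12405000) had the lowest mean of the 8 loci in both libraries, 16.8% and 17.8% over 175 CpGs. Its median CpG was at 0% in *Rex1*-high and 2.94% in *Rex1*-low cells. The *Sox1* difference of 0.912 points between means was the smallest of the 8, and it was 2.90 points for pooled calls, with an interval of 1.60 to 4.18. Over the 7 alternatives run for a locus, the *Sox1* difference was larger, at 1.49 to 2.94 points. In descending order of the difference between means, the loci were therefore *Fgf5*, *Gata4*, *T*, *Gata6*, *Pax6*, *Foxa2*, *Otx2* and *Sox1*. The order depended on how a locus was summarised. With pooled calls *Fgf5* stayed first and *Gata4* moved from the second place to the last, and the pooled interval of *Fgf5* overlapped only those of *T* and *Otx2*. The *Pax6* interval lay above those of *Gata6*, *Gata4* and *Foxa2*, and that of *T* above *Gata4*, while all other pairs overlapped. *Pax6* came first at a minimum of 10 calls per line, with 10.3 points against 8.88 for *Fgf5*, and with medians over CpGs, with 7.63 points against 2.83. At a minimum of 1 call *Sox1* was not the smallest, with 2.23 points against 1.71 for *Otx2*. With medians *T* was the smallest, with -1.33 points against 2.94 for *Sox1*.

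**Figure D2:**
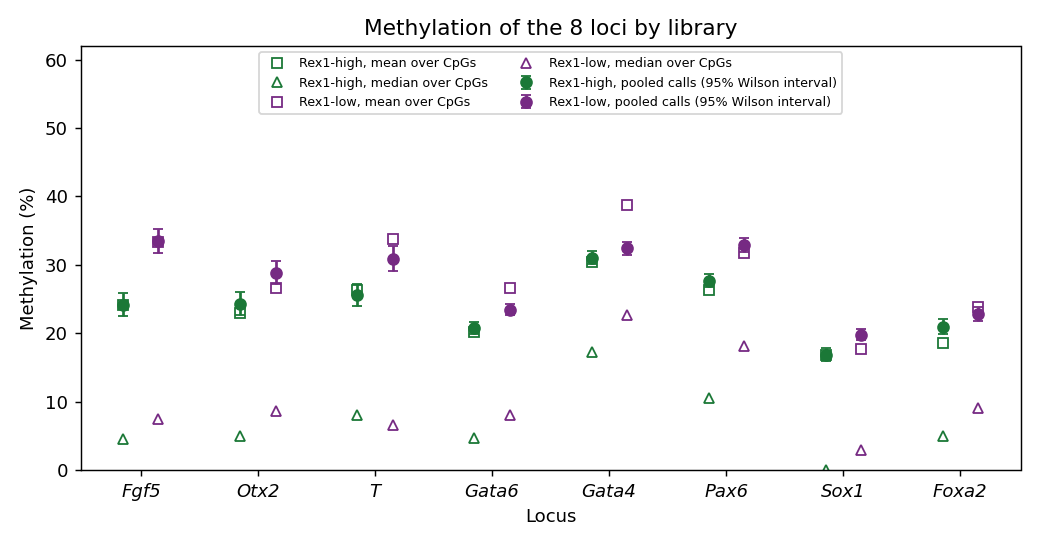
Methylation (%) of the 8 loci in the *Rex1*-high (green) and *Rex1*-low (purple) libraries, as the mean over CpGs (squares), the median over CpGs (triangles) and the pooled calls with 95% Wilson intervals (filled circles with bars). Means and pooled values were higher in *Rex1*-low cells at every locus, whereas medians lay far below the means and fell from 8.0% to 6.67% at *T*.

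To ask where in each locus methylation differed, non-overlapping tiles of 2500 bp were laid over the genome. For each tile with at least 3 CpGs, the calls of both libraries were summed and tested by Fisher's exact test, two-sided, with Benjamini-Hochberg adjustment over all tiles. A tile was called when its adjusted p was under 0.05 and its mean changed by at least 10 points. Of the 66 tiles in the 8 loci, 25 (37.9%) were called more methylated in *Rex1*-low cells, where 75.5% of all tiles were. None was called less methylated, where 0.0326% of all tiles were. At a minimum of 10 calls per line 1 of 57 was, in *Fgf5*, where 0.0353% of all tiles were. At the minimum of 5 calls, 1 of the tiles whose mean fell had an unadjusted p under 0.05. In this *Otx2* tile (chr14:49287501-49290000) the mean went from 27.7% to 26.5%, but 138 of 511 calls were methylated in *Rex1*-high and 156 of 418 in *Rex1*-low cells, so that the mean and the tested calls went opposite ways (exact test, adjusted p = 1.47e-03). The reverse was seen in a *Foxa2* tile (chr2:147865001-147867500), whose mean went from 19.2% to 20.6% while its methylated calls went from 148 of 543 to 138 of 661 (exact test, adjusted p = 1.60e-02). Mean and pooled calls had opposite signs in 10 of the 66 tiles, and in these 2 alone the adjusted p was under 0.05. In all, 58 of the 66 tiles (87.9%) had a higher mean in the *Rex1*-low library, where 96.8% of all tiles did, and 8 had a lower one. The loci were richer in CpGs than the genome as sampled, since 36.4% of their tiles held at least 20 measured CpGs, compared with 9.10% of all tiles.

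The calls went with CpG content. Of the 24 tiles with at least 20 CpGs, 3 (12.5%) were called more methylated, where 13.4% of all such tiles were. Their median methylation was 17.5% in *Rex1*-high and 20.5% in *Rex1*-low cells, compared with 14.2% and 16.3% for all tiles of this class. Of the 42 tiles with 3 to 19 CpGs, 22 (52.4%) were called more methylated, where 81.7% of all such tiles were. Their median went from 47.0% to 62%, compared with 58.9% and 86.4% for all tiles of this class. The share called was farthest from that of all tiles in the class of 10 to 19 CpGs, where 4 of 16 tiles (25.0%) in the loci and 76.2% overall were called. These 16 tiles had a median of 23.7% in *Rex1*-high and 29.0% in *Rex1*-low cells, whereas all tiles of 10 to 19 CpGs had medians of 47.3% and 76.2%. In tiles of 5 to 9 CpGs, 11 of 15 (73.3%) were called, where 88.5% of all were, and in tiles of 3 or 4 CpGs 7 of 11 (63.6%) were, where 77.9% of all were. The level in *Rex1*-high cells divided them likewise, with 21 of the 24 tiles at or above 40% called, where 85.7% of all such tiles were, and 4 of the 42 tiles below 40%, where 36.5% were. Below 20%, 1 of 19 was called, where 5.28% of all such tiles were. As the call requires a rise of 10 points, these counts describe the tiles of the loci and are not a test against other tiles.

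**Figure D3:**
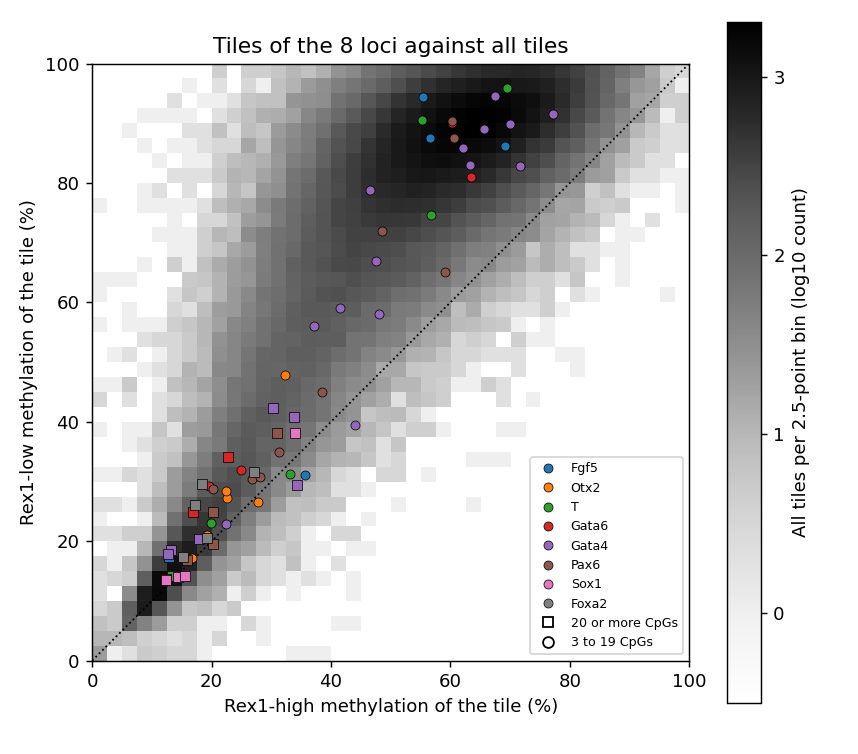
Mean methylation (%) of 2500 bp tiles in the *Rex1*-high library (horizontal axis) and the *Rex1*-low library (vertical axis), with the 66 tiles of the 8 loci coloured by locus, squares for tiles with at least 20 CpGs and circles for tiles with 3 to 19. Grey shading gives the log10 number of all 162599 tiles per 2.5-point bin and the dotted line marks equal methylation. The squares lie near the line below 45%, while circles above 40% in *Rex1*-high cells lie mostly far above the line, within the darkest part of the genomic distribution.

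In the *Fgf5* locus, the tile with the most CpGs (chr5:98682501-98685000, 67 CpGs) held the start of the gene and differed little. It had 324 methylated of 1933 calls in *Rex1*-high and 450 of 2148 in *Rex1*-low cells, and its mean went from 12.9% to 17.4% (exact test, adjusted p = 1.18e-03, a change below the 10 points of the call). The largest rise of any tile in the 8 loci also lay in *Fgf5*, at chr5:98695001-98697500, where 3 CpGs went from 55.4% to 94.4%. That tile rested on 29 and 24 calls (exact test, adjusted p = 9.39e-03). Another *Fgf5* tile (chr5:98702501-98705000) had 12 CpGs and went from 56.5% to 87.6% (exact test, adjusted p = 1.82e-24), and 8 of the 10 *Fgf5* CpGs called more methylated lay in it. Over the whole *Fgf5* window, the 67 CpGs of the tile with at least 20 CpGs had a mean difference of 4.5 points, and the 23 CpGs of the other tiles one of 22.0 points, from 52.2% to 74.2%.

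The *Otx2* locus had 6 tested tiles, none with 20 CpGs and none called, where 81.7% of all tiles of 3 to 19 CpGs were. Its richest tile (chr14:49280001-49282500, 19 CpGs) had 116 methylated of 521 calls in *Rex1*-high and 115 of 411 in *Rex1*-low cells, and went from 22.5% to 28.3% (exact test, adjusted p = 5.78e-02). The largest rise was at chr14:49285001-49287500, where 8 CpGs went from 32.4% to 47.9%. This tile did not pass the test (exact test, adjusted p = 0.426), with 56 of 167 and 86 of 228 calls methylated. All 6 *Otx2* tiles thus stayed between 16.7% and 47.9% in both libraries.

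The *T* locus had 6 tiles, of which 3 were called more methylated, where 75.5% of all tiles were. All 3 were among its 5 tiles with 3 to 19 CpGs, where 81.7% of all such tiles were called. Around its richest tile (chr17:8625001-8627500, 43 CpGs) methylation was 13.4% in *Rex1*-high and 14.2% in *Rex1*-low cells, with 225 of 1620 and 262 of 1444 calls methylated (exact test, adjusted p = 2.47e-03, change below 10 points). Less than 5 kb away, 9 CpGs at chr17:8630001-8632500 went from 55.3% to 90.5% (exact test, adjusted p = 7.89e-11). At that tile 125 of 211 calls were methylated in *Rex1*-high and 137 of 151 in *Rex1*-low cells, and the intervals of the libraries did not overlap. The other called tiles held 7 and 4 CpGs and rose by 17.9 and 26.4 points.

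The *Gata6* locus contained the most CpG-rich tile of the 8 loci, chr18:11052501-11055000 with 133 CpGs. It had 653 methylated of 4624 calls in *Rex1*-high and 984 of 6170 in *Rex1*-low cells, a mean of 12.4% and 13.7%. Of 7 *Gata6* tiles, 3 were called more methylated, where 75.5% of all tiles were. By class these were 1 of 3 tiles with at least 20 CpGs (13.4% over all such tiles) and 2 of 4 with fewer (81.7%). The largest rise was at chr18:11062501-11065000, where 5 CpGs went from 60.2% to 90.0% (exact test, adjusted p = 1.79e-05). One called tile was CpG-rich, chr18:11047501-11050000 with 50 CpGs, which went from 22.8% to 34.1% (exact test, adjusted p = 5.45e-05). This call was lost at a minimum of 10 calls, with a difference of 9.32 points, at a minimum of 1 call (6.08 points), when the lines of a CpG were summed (8.83 points), when the deeper library was thinned (8.06 points), and without CpGs whose lines disagreed (7.65 points).

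The *Gata4* locus, the longest window, had 20 tiles, of which 12 were called more methylated, where 75.5% of all tiles were. Among its 14 tiles with 3 to 19 CpGs 11 were called, where 81.7% of all such tiles were. Its richest tile (chr14:63862501-63865000, 56 CpGs) went from 17.9% to 20.4%, with 438 of 2010 and 491 of 2075 calls methylated (exact test, adjusted p = 0.177). The largest rise was at chr14:63882501-63885000, where 5 CpGs went from 46.6% to 78.9% (exact test, adjusted p = 1.18e-03). Of its 6 tiles with at least 20 CpGs, only chr14:63870001-63872500 was called, where 13.4% of all such tiles were. It held 24 CpGs and went from 30.3% to 42.4% (exact test, adjusted p = 1.68e-05), and it kept its call under every alternative run on the same tiles except a minimum change of 20 points. *Gata4* also held the tile with the largest decrease in the loci, chr14:63865001-63867500, where 23 CpGs went from 34.3% to 29.4% (exact test, adjusted p = 0.730).

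*Foxa2*, the remaining endoderm factor, had 5 tiles that all held at least 20 CpGs. The richest (chr2:147870001-147872500, 67 CpGs) went from 15.2% to 17.3%, with 431 of 2212 and 593 of 2992 calls methylated (exact test, adjusted p = 0.797). The only called tile of the 5 was its neighbour, chr2:147872501-147875000, with 39 CpGs, where 13.4% of all tiles with at least 20 CpGs were called. It went from 18.4% to 29.6%, with 209 of 1184 and 319 of 1441 calls methylated (exact test, adjusted p = 6.68e-03). This call did not hold at a minimum of 10 calls per line, where the difference was 5.19 points, or of 1 call, where it was 8.21 points.

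In the *Pax6* locus, 3 of 13 tiles were called more methylated, where 75.5% of all tiles were. All 3 were among its 9 tiles with fewer than 20 CpGs, where 81.7% of all such tiles were called. Its richest tile (chr2:105515001-105517500, 57 CpGs) went from 15.8% to 16.9%, with 310 of 1579 and 413 of 2206 calls methylated (exact test, adjusted p = 0.530). Its largest rise was at chr2:105537501-105540000, where 5 CpGs went from 60.3% to 90.3% (exact test, adjusted p = 6.62e-05). At that tile 77 of 109 calls were methylated in *Rex1*-high and 66 of 69 in *Rex1*-low cells. The 3 called *Pax6* tiles lay in the last part of the window, more than 20 kb from its start.

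*Sox1* had 4 tiles, all with at least 20 CpGs, and none was called, where 13.4% of all such tiles were. Its richest tile (chr8:12395001-12397500, 89 CpGs) went from 12.4% to 13.4%, with 363 of 2752 and 627 of 4053 calls methylated (exact test, adjusted p = 1.32e-02, change below 10 points). The largest rise was at chr8:12390001-12392500, where 29 CpGs went from 33.9% to 38.1%. In 2 of the 4 *Sox1* tiles the mean was lower in *Rex1*-low cells, by at most 1.35 points, although their pooled methylation was higher.

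Across the 8 loci, the richest tile of each gene was thus between 12.4% and 28.3% in both libraries, and it was not called at any of them. Where a locus had called tiles, these went from a median of 56.8% in *Rex1*-high to 85.9% in *Rex1*-low cells over the 25 tiles, while the 41 tiles not called went from 20.3% to 26.5%. As a call requires a rise of at least 10 points, the larger rise of the called tiles was largely set by that rule.

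At the level of single CpGs, 73 of the 1469 CpGs (4.97%) were called more methylated in *Rex1*-low cells by Fisher's exact test with adjustment over all CpGs, where 12.5% of all CpGs were. This count was 30 of 1469 after the deeper library was thinned, where 6.74% of all CpGs were called. It was 42 of 1810 at a minimum of 1 call per line (7.43%) and 99 of 1130 at 10 calls (19.2%). Of the 1469 CpGs, 2 were called less methylated (0.136%), where 0.239% of all CpGs were. At a minimum of 10 calls per line 8 of 1130 were, where 0.450% of all CpGs were. As a share of the measured CpGs of a locus, *Fgf5* had the most called, 10 of 92 (10.9%), followed by *T* with 8 of 85 (9.41%). *Gata4* had 21 of 305 (6.89%) and *Gata6* 15 of 263 (5.70%). The remaining loci lay below these, with 9 of 277 (3.25%) in *Pax6*, 4 of 175 (2.29%) in *Sox1*, 2 of 88 (2.27%) in *Otx2* and 4 of 184 (2.17%) in *Foxa2*. Among the 1075 CpGs that lay in tiles with at least 20 CpGs, 38 (3.53%) were called, where 4.36% of all CpGs in such tiles were. In direction, 858 CpGs (58.4%) were higher in *Rex1*-low cells, where 66.1% of all CpGs were, and 373 (25.4%) were lower, where 14.1% were. The other 238 were equal, most of them at 0% in both libraries.

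Single CpGs showed nearly complete switches in places. At position 63832526 of *Gata4*, 1 of 17 calls was methylated in *Rex1*-high and 12 of 12 in *Rex1*-low cells (exact test, adjusted p = 6.20e-05). At position 8631640 of *T*, 2 of 15 calls were methylated in *Rex1*-high and 10 of 10 in *Rex1*-low cells (exact test, adjusted p = 1.17e-03). At position 105539665 of *Pax6* the calls were 2 of 10 and 10 of 10 (exact test, adjusted p = 1.21e-02). These 3 were chosen after their values were seen, as the largest differences in their loci, and each rests on fewer than 20 calls in each library. In *Fgf5*, 6 called CpGs lay close together, from position 98703165 to 98703245. Their *Rex1*-high methylation was between 19.9% and 67.5%, and their *Rex1*-low methylation between 68.2% and 100%.

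The 2 CpGs called less methylated were at position 98685204 of *Fgf5*, with 11 of 11 and 25 of 47 calls methylated (exact test, adjusted p = 3.76e-02), and at position 12401581 of *Sox1*, with 11 of 32 and 0 of 35 (exact test, adjusted p = 3.36e-03). At both, the 2 lines that the files list for the position disagreed in a library, meaning that 1 had at least 80% methylation and the other no more than 20%. Such disagreement occurred at 188 of the 1469 CpGs (12.8%), compared with 8.84% of all CpGs, and at 25 of the 73 called more methylated. For the last count, no share over all called CpGs was computed. At such a CpG the lines kept could differ between the libraries, and the part of this in the calls was not tested. Without CpGs whose lines disagreed, 45 of 1281 were called more methylated and 0 less, where 12.1% and 0.0825% of all CpGs were.

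Around the starts that could be placed, the base sequence was set beside the methylation of single CpGs. RefSeq (GRCm38.p6) promoter sequences were at hand for 6 of the 8 genes, and the spacing of their CpGs matched the measured mm9 positions at a single place for 3 of them, *Fgf5*, *Pax6* and *Foxa2*. The 250 bases before the outermost RefSeq start of each are shown to let the CpGs inside MspI recognition sites be told from the others. They are written 5′ to 3′ on the strand of the gene, with each MspI site, CCGG, in capitals. CCGG reads the same on both strands and overlaps no other motif searched. They match chr5:98682954-98683203 on the plus strand for *Fgf5*, chr2:105508804-105509053 on the plus strand for *Pax6* and chr2:147872707-147872956 on the minus strand for *Foxa2*.
Fgf5: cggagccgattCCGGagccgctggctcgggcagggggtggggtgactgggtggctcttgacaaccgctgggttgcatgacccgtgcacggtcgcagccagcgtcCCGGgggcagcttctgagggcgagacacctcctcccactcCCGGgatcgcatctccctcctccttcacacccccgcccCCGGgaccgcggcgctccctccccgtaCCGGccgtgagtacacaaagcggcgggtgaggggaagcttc
Pax6: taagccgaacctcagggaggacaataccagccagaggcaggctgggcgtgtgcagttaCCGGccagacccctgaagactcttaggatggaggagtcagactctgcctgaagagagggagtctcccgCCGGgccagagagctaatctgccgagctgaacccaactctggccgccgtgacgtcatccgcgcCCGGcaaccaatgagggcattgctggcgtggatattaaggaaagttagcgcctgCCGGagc
Foxa2: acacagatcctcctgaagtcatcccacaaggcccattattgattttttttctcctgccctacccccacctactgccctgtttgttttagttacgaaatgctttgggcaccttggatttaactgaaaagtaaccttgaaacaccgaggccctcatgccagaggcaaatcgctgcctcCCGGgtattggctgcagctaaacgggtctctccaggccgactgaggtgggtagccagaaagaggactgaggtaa
At the *Fgf5* start all 29 CpGs of the matched 300 bases, which run 50 bases past the start, were among the listed positions. At *Pax6* 17 of 18 CpGs were listed, and at *Foxa2* 11 of 12. CCGG occurs in 47.1% of the 32851 RefSeq windows of 250 bases, and in 95.6% of the windows that could be placed. The shown sequences hold 5 sites for *Fgf5*, 4 for *Pax6* and 1 for *Foxa2*. A second *Pax6* start, at position 105522621, was also placed.

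In these sequences the methylation of a CpG went with its place in an MspI site. Over the 4 starts, the 13 measured CpGs in MspI sites had a mean of 55.1% in *Rex1*-high and 59.8% in *Rex1*-low cells, and the 45 measured CpGs elsewhere had 2.44% and 4.51%. Around the *Fgf5* start, 6 MspI-site CpGs averaged 48.7% and 62.5%, whereas 17 others averaged 1.42% and 1.60%. The *Fgf5* CpG at 145 bases before the start, for example, had 27 methylated of 37 calls in *Rex1*-high and 44 of 55 in *Rex1*-low cells, while the 17 others had 6 of 425 and 7 of 494 calls methylated together. At the first *Pax6* start, 4 MspI-site CpGs averaged 62% and 61.9%, and 12 others 1.33% and 2.5%. At the second *Pax6* start, 2 such CpGs averaged 61.7% and 67.5%, and 9 others 6.88% and 11%. At *Foxa2*, the 1 MspI-site CpG was at 53.2% in *Rex1*-high and 20% in *Rex1*-low cells, on 23 and 10 calls, and 7 others averaged 1.13% and 6.65%.

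The same division held in all placed sequences. There, 23214 CpGs in MspI sites averaged 53.4% in *Rex1*-high and 56.6% in *Rex1*-low cells, 3155 CpGs in TaqI sites 53.7% and 59.0%, and 111503 CpGs in neither 1.21% and 1.82%. In MspI sites 48.0% of CpGs had lines that disagreed, compared with 0.0314% of the CpGs in neither site. Both enzymes cut the DNA at these sites before the libraries were made, and the fragment ends were then filled in. The part of this step in the values was not tested. Because the base sequence was known only in the matched bases, CpGs in recognition sites could not be set apart in the rest of the loci. The locus means, the means of all tiles and the single-CpG calls above were made without leaving them out. Their share in tiles with few CpGs is not known.

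**Figure D4:**
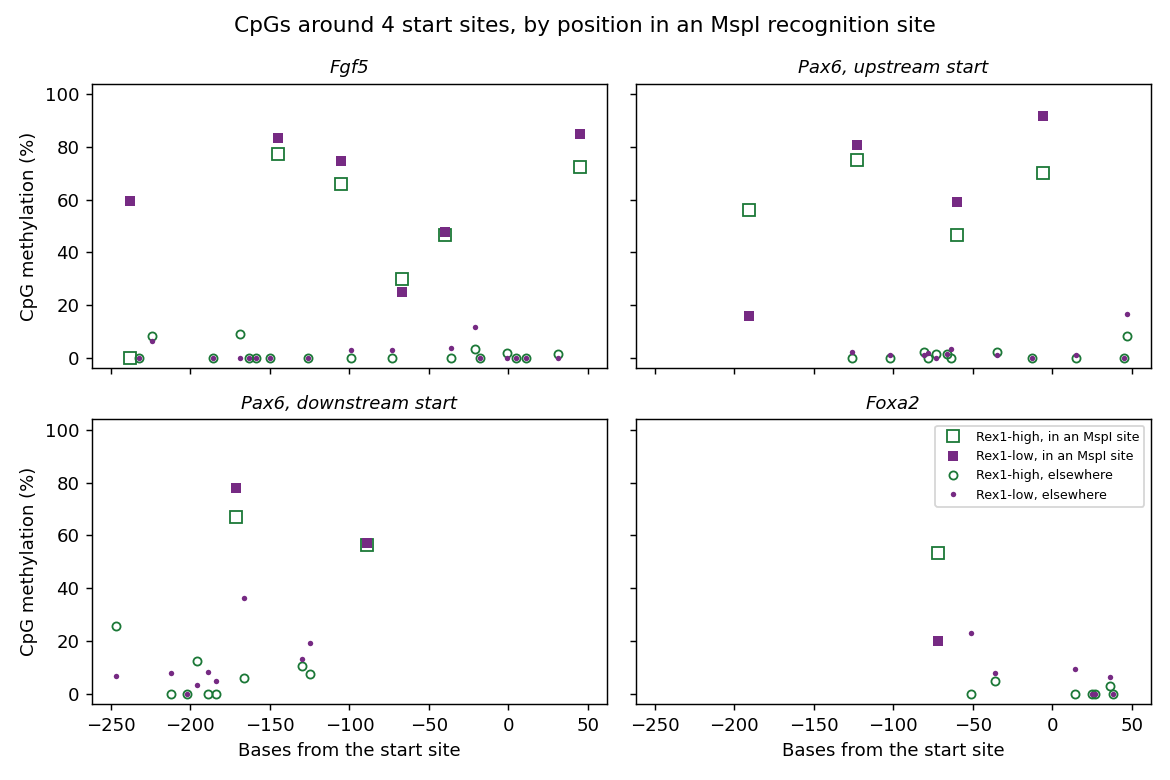
Methylation (%) of each measured CpG (vertical axis) by its distance in bases from the start (horizontal axis) around 4 placed starts of *Fgf5*, *Pax6* and *Foxa2*, with squares for CpGs in MspI sites and circles or points for the others, open green for the *Rex1*-high and filled purple for the *Rex1*-low library. Most squares lie between 45 and 92%, with 1 at 0% and others at 15.8, 20, 25.0 and 30.0%, and nearly all other CpGs lie below 15%.

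Promoters were then compared at the placed starts, each taken as the 2 kb before a start and the 500 bp after it. Of the 4 promoters of *Fgf5*, *Pax6* and *Foxa2*, 0 were called more methylated, where 3.46% of the 9519 placed promoters were, and 0 less methylated, where 0.0105% were. The *Fgf5* promoter had 251 methylated of 1596 calls in *Rex1*-high and 376 of 1868 in *Rex1*-low cells, and its mean over 56 CpGs went from 12.0% to 16.2% (exact test, adjusted p = 7.73e-03, adjusted over all placed promoters, change below 10 points). In its 300 matched bases the *Fgf5* difference was 3.75 points, and 0.185 points without CpGs in MspI or TaqI sites. The first *Pax6* promoter was at 23.1% and 22.5% over 45 CpGs, with 543 of 2044 and 552 of 1890 calls methylated (exact test, adjusted p = 0.186). The second was at 19.5% and 25.5% over 40 CpGs, with 272 of 1125 and 394 of 1206 calls methylated (exact test, adjusted p = 1.48e-04, change below 10 points). The *Foxa2* promoter had the largest difference, from 18.1% to 30.8% over 25 CpGs. Its pooled calls, 109 of 665 and 177 of 906, did not differ by the test (exact test, adjusted p = 0.258), but it was called by a Cochran-Mantel-Haenszel test with CpGs as strata and by Fisher's exact test after thinning, with differences of 12.6 and 13.0 points. The difference fell below 10 points at a minimum of 10 calls per line (5.58 points) or of 1 call (7.95 points), and within 500 bp of the start on either side (5.35 points), and it was 0.678 points in the 300 matched bases, or 5.51 points there without CpGs in MspI or TaqI sites. For scale, all placed promoters had medians of 13.1% and 14.5%, and a median of 46 CpGs.

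From a list of 36 other regulators of these lineages and of the trophectoderm, 7 had a placed promoter, and 0 of these were called in either direction, where 3.46% of all placed promoters were called more and 0.0105% less methylated. *Lef1*, a Wnt effector of the epiblast, went from 20.3% to 15.8%, and *Wnt3*, a ligand that induces the primitive streak, from 15% to 17.7%. *Cxcr4*, a chemokine receptor of the definitive endoderm, was at 14.2% and 14.6%. Of the neural genes, *Olig2* and *Zic1*, both transcription factors, went from 21.5% to 26.0% and from 19% to 23.2%. *Nes*, an intermediate filament of neural progenitors, stayed at 16.4%, and *Pax7*, a paired box factor, was at 21.2% and 21.5%. Their differences, from -4.49 to 4.51 points, took in those of the *Fgf5* and first *Pax6* promoters but not those of the second *Pax6* promoter (5.98 points) or of *Foxa2* (12.6 points). None of the 4 trophectoderm genes on the list had a placed promoter.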

How the data were processed

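DNA methylation was measured by RRBS in 1 *Rex1*-high and 1 *Rex1*-low library. Per the labels, DNA was cut with TaqI and MspI, and the submitters' processing notes name Bismark 0.7 and mm9. The authors deposited, per line, the methylated calls over all calls, and a score (this ratio times 1000) that was not used. A position had at most 2 lines and no strand was given. Lines of at least 5 calls were kept and averaged per CpG, and 3 CpGs were required per tile or promoter. Members and lists were chosen with earlier results of these data known. In each locus, the tile with the most CpGs, the tile with the largest rise and any called less methylated were named. Starts were placed by matching the CpG spacing of RefSeq sequences (GRCm38.p6) to the listed positions, with at least 8 CpGs and 2 times the score of the next place required, since no mm9 annotation was used here. Of 32619 sequences 9563 were placed, and all 1046 neighbouring pairs of starts kept the RefSeq spacing. Tests were Fisher's exact test with Benjamini-Hochberg adjustment, checked on simulated data. Intervals are 95% Wilson or Newcombe. Tests ran in SciPy 1.17.1 and numba 0.67.0 under Python 3.11.15, with pandas 2.3.3, NumPy 2.4.6 and matplotlib 3.10.9.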

Additional observations from a re-analysis of the deposited data

How the results depend on the processing

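The results were recomputed under 13 alternatives planned for them and 3 chosen after seeing the data. Of 153 recomputed values, 117 kept their call or stayed within 1.5 times the count or within the counting error. Among the 56 locus differences, 36 stayed within the counting error. The 117 are a lenient count, since a promoter that stayed uncalled was taken as kept whatever its difference. They also include numbers of tiles tested and promoter counts that stayed at 0. The median difference over the 8 loci, 5.99 points, was 7.85 at a minimum of 10 calls per line, 3.70 with pooled calls and 3.51 with medians over CpGs. With medians *Fgf5* differed by 2.83 points and *T* by -1.33, the only negative value of 56. Over the alternatives, differences ranged from 1.38 to 9.54 points for *Gata4*, 1.71 to 7.90 for *Otx2*, 5.22 to 10.3 for *Pax6* and 1.49 to 2.94 for *Sox1*. For *Sox1* all 7 alternatives lay above the main value of 0.912 points. Tiles called more methylated numbered 12 of 66 at a minimum change of 20 points, where 59.7% of all tiles were called, and at most 32, of 99 tiles of 1000 bp, where 71.7% were. At 10 calls per line 1 of 57 tiles was called less methylated, where 0.0353% of all tiles were. It lay at chr5:98685001 in *Fgf5*, and its 3 CpGs went from 50.5% to 35.9%. CpGs called more methylated, 73 of 1469, numbered 99 of 1130 at 10 calls per line, where 19.2% of all CpGs were called, 42 of 1810 at 1 call (7.43%), 45 of 1281 without CpGs whose lines disagreed (12.1%) and 30 of 1469 after thinning (6.74%). CpGs called less methylated numbered 8 of 1130 at 10 calls, where 0.450% of all CpGs were called, 0 of 1554 with lines summed (0.0787%), 0 of 1281 without disagreeing lines (0.0825%) and 1 of 1469 after thinning (0.0570%). Promoters called more methylated numbered 1, *Foxa2*, after thinning, where 4.85% of all placed promoters were called, and 1 by the Cochran-Mantel-Haenszel test, where 4.35% were, and no other alternative changed this count. In these cases the cause was not tested. No paired analysis was possible because each state had 1 library. Tiles of 3 CpGs rest on few calls, from 24 to 121 per library in the loci, and how low depth affects their calls was not tested.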

Other observations

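The promoters of the loci included CpGs both in and outside recognition sites, and the genome allowed the same split in sequence that was otherwise unmethylated. In the placed sequences whose CpGs outside MspI and TaqI sites averaged at most 10% in both libraries, 22345 CpGs in MspI sites averaged 53.2% in *Rex1*-high and 56.2% in *Rex1*-low cells. The 2923 CpGs in TaqI sites averaged 53.3% and 58.1%, and the 108949 CpGs in neither 0.904% and 1.14%. The low values of the CpGs in neither were set by the choice of these sequences. As these sequences hold 22345 of the 23214 MspI-site CpGs given above, this largely repeats the earlier split. When the CpGs in both kinds of site were left out of the matched 300 bases, an alternative chosen after seeing the data, 0 of the 4 promoters of *Fgf5*, *Pax6* and *Foxa2* were called more methylated, where 2.17% of all placed promoters were.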
